A study of Mus musculus with 51 samples.

Results

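The 40 genes described here encode the enzymes, glucose and lactate carriers of glycolysis together with the hypoxia-inducible factor (HIF) system and genes that HIF is known to switch on. They were taken as a fixed list of symbols, and all 40 were matched by Entrez identifier and had counts among the 36528 identifiers of the study's count table. The libraries came from lungs of male C57/B6 mice, a common inbred laboratory strain, that received bleomycin, a drug that injures the lung and leads to fibrosis, or saline through the trachea and were sampled at day 14. No transgene or other allele is given in the labels, and the ages of the mice are not given in the sources used here. Cells were sorted by flow cytometry into 4 fractions, namely CD31+ (endothelial), CD45+ (leukocyte), EpCAM+ (epithelial) and triple-negative cells, which carried none of the 3 markers. Total RNA was sequenced from 51 libraries, of which 7 bleomycin and 5 saline ones held CD31+ cells, and each other fraction had 8 and 5.

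Glycolysis splits glucose into pyruvate, which is either burnt in mitochondria or reduced to lactate and exported. When oxygen is plentiful, prolyl hydroxylases mark the HIF alpha subunits for destruction by the VHL ubiquitin ligase. When oxygen is scarce the subunits persist, pair with ARNT and bind hypoxia response elements near genes for glucose uptake, glycolysis, lactate export and acid balance. Lung endothelium is known for high levels of Epas1, which encodes the alpha subunit HIF-2α, and HIF-1α also drives glycolysis in activated leukocytes. Much of HIF control acts on the protein, which these data do not measure.

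The libraries held between 15.7 and 36.5 M (mega) counts each, with a median of 22.7 M. Pecam1, the gene for CD31, held at least 2942.3 CPM (counts scaled to a library total of 1 M) in CD31+ libraries and at most 251.6 elsewhere. Ptprc, the gene for CD45, held at least 650.1 in CD45+ libraries and at most 37.2 elsewhere, and Epcam at least 172.7 in EpCAM+ libraries and at most 32.8 elsewhere. Col1a1, a fibroblast collagen gene, held at least 5000.9 CPM in triple-negative libraries and at most 2348.3 elsewhere. By the design text's 5 saline and 8 bleomycin animals the fractions share animals, but the labels do not tie libraries of different fractions together, so libraries were fitted as independent. In bulk libraries of this kind, fewer cells of a type and less RNA per cell cannot be told apart.

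The core of the hypoxia response element, ACGTG, was searched on both strands of the RefSeq promoter windows of GRCm38.p6, each 300 bases around a gene's start, to show where the listed genes carry it. Windows were found for 37 of the 40 genes, all but Ndrg1, Epas1 and Slc2a3. The letters ACGTG or their complement CACGT, which overlap within CACGTG, stood in a window of 23 of these 37 genes (62.2%) and of 5886 of all 27025 genes (21.8%). Over single windows the counts were 26 of 52 and 6447 of 32851. A match is a description of the sequence and does not show that HIF binds there. The windows of Ldha (chr7:46845554-46845853, plus strand), Ankrd37 (chr8:45999801-46000100, minus strand) and Aldoc (chr11:78322823-78323122, plus strand) follow, because Aldoc and Ankrd37 carry the largest rises described below and Ldha rose in every fraction. They are printed 5′ to 3′ with ACGTG or CACGT in capitals, and this Ldha window holds CACGTG at 2 places. Ldha and Aldoc each have another window that is not printed (chr7:46846832-46847131 and chr11:78323948-78324247, plus strand). Neither of those windows holds ACGTG or CACGT. Eno1 and Pkm also rose in every fraction, and a Pkm window holds CACGT while no Eno1 window holds either. Of genes that fell in every fraction, Pfkm has a window with CACGTG and Kdm3a has none with ACGTG or CACGT. Whether the letters go with the direction of change was not tested.
Ldha: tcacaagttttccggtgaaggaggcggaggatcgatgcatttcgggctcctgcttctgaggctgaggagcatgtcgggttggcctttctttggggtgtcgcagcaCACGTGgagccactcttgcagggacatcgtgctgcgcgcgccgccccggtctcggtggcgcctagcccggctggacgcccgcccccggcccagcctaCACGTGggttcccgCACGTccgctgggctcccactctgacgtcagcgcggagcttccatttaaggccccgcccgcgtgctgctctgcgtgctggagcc
Ankrd37: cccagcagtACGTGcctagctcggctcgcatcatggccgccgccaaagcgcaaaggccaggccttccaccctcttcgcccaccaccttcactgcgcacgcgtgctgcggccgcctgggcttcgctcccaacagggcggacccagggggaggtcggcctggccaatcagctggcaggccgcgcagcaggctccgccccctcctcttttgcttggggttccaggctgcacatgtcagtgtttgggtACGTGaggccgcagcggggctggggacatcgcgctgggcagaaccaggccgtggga
Aldoc: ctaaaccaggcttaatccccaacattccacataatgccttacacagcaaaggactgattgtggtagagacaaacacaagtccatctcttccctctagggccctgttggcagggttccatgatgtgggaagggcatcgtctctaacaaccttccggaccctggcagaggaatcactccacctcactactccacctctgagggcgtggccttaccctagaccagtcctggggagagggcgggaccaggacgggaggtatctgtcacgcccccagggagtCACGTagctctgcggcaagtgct

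In saline lungs the carriers and the isozymes of single steps were divided between the fractions. Levels are compared between genes as CPM per kilobase of exon (kb), with all 51 libraries scaled together. Epas1 was the highest of the 40, at 1798.3 CPM per kb in CD31+ cells against 208.6 in EpCAM+, 109 in triple-negative and 53.0 in CD45+ cells. Aldoa, the main aldolase, differed little, from 104.2 in CD31+ to 122.3 in EpCAM+ cells, and its top fractions overlapped. Hk2, the inducible hexokinase, stood at 19.2 in EpCAM+ and 0.301 in CD31+ cells, a wide range, whereas the constitutive Hk1 was highest in CD31+ cells at 21.3. Ldhb, the lactate dehydrogenase subunit that favours pyruvate, stood at 68.5 CPM per kb in EpCAM+ and 1.22 in CD31+ cells.

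CD45+ cells held the highest levels of the lactate exporter Slc16a3 (55.7 CPM per kb, next 2.76 in triple-negative cells) and of the high-affinity glucose transporter Slc2a3 (19.9, next 2.55 in triple-negative cells). Triple-negative cells held the highest levels of the vasodilator peptide gene Adm (37.8, next 3.11 in CD31+), the stress gene Ndrg1 (24.3, next 13.0) and the prolyl hydroxylase Egln3 (5.84, next 3.19). EpCAM+ cells led for Pfkfb4 (38.2, next 17.6), which sets fructose 2,6-bisphosphate, a strong activator of glycolysis. None of these leading fractions overlapped the next over the 5 saline libraries. The leading fraction did overlap the next for Pfkl, Pfkp, Pfkfb3, Aldoa, Tpi1, Pgam1, Slc16a1, Pdk1, Hif1a, Ankrd37, Ddit4 and Car12.

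Each saline fraction was tested against the mean of the other saline fractions with edgeR's quasi-likelihood test, adjusted over all genes by the Benjamini-Hochberg method at 0.05. In CD31+ cells 8 members were higher and 25 lower, while 32.3% and 37.6% of all genes were. In CD45+ cells the counts were 22 and 13 (all genes 39.2% and 41.4%), in EpCAM+ cells 16 and 16 (37.0% and 39.6%), and in triple-negative cells 16 and 17 (35.0% and 37.9%). In CD31+ cells Epas1 differed from the other fractions by 4.08 on the log2 scale, Hk2 by -5.31 and Aldoc by -3.91 (adjusted p = 2.35e-28, 7.31e-18 and 1.21e-14). In CD45+ cells Slc16a3 differed by 5.14 and Slc2a3 by 4.32 (3.15e-26 and 3.14e-27), in EpCAM+ cells Aldoc by 4.06 and Ldhb by 4.01 (7.2e-23 and 1.93e-21), and in triple-negative cells Adm by 4.57 (2.41e-20).

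**Figure D1:**
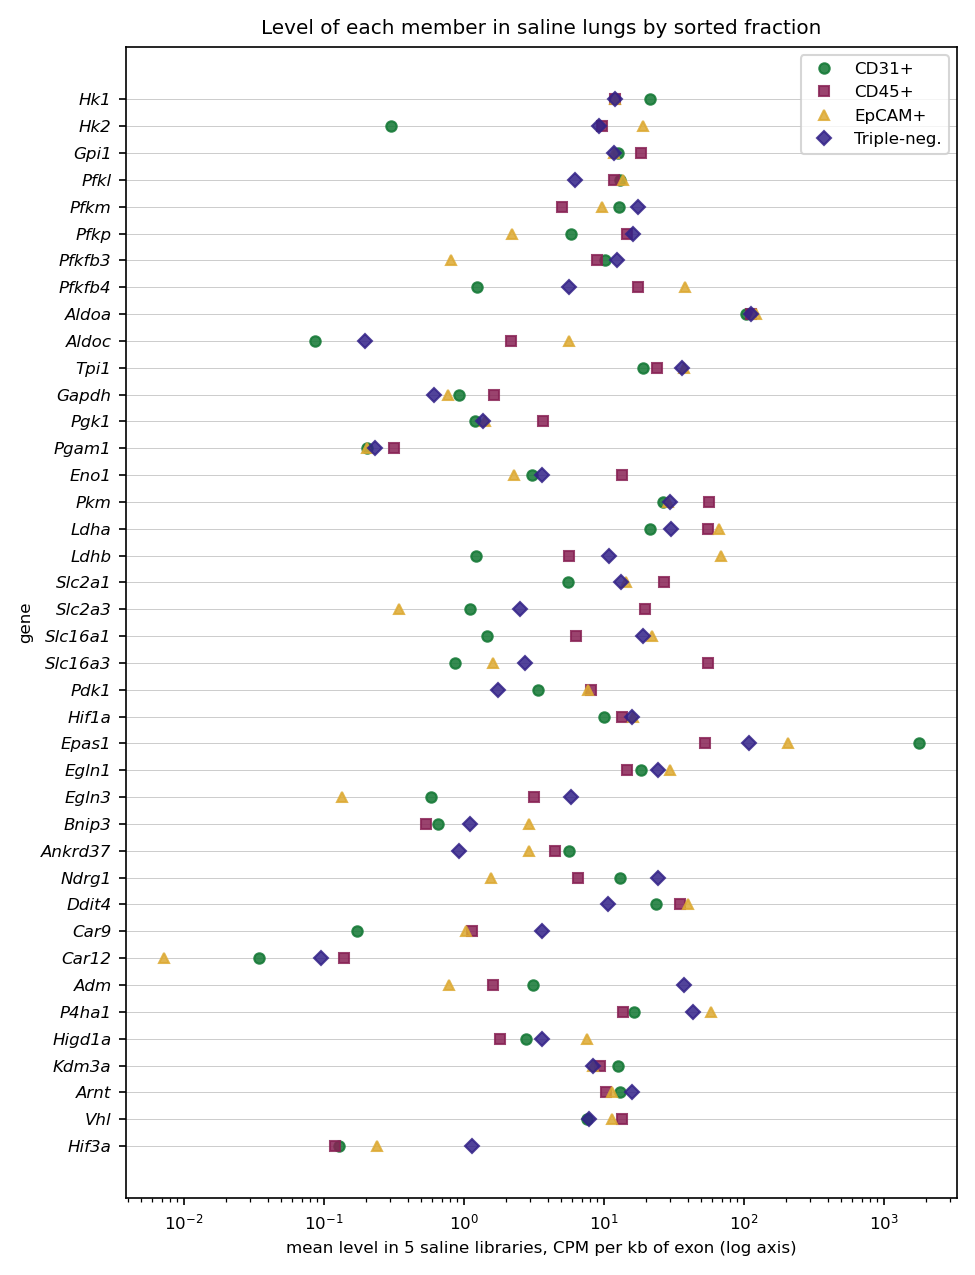
Mean level of each of the 40 genes in the 5 saline libraries of each fraction, in CPM per kilobase of exon on a log axis; marker shape and colour give the fraction. Epas1 in CD31+ cells lies furthest right at 1798.3, and the points of Aldoa nearly coincide.

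In every fraction some of the 40 genes rose and others fell after bleomycin. In CD31+ libraries 20 of the 39 members tested rose and 7 fell (all genes 24.2% and 24.6%, 48.8% in either direction), with a median log2 fold change of 0.44 over the members and -0.01 over all genes. In CD45+ libraries 16 of 40 rose and 10 fell (28.4% and 26.8%, 55.3% in either direction), with a median of 0.11. In EpCAM+ libraries 11 of 39 rose and 15 fell (31.2% and 28.9%, 60.2% in either direction), with a median of -0.12. In triple-negative libraries 10 of 40 rose and 18 fell (27.7% in each direction, 55.4% in either), also with a median of -0.12. Car9 in CD31+ and Car12 in EpCAM+ cells were left out of these fits by the filter on low counts.

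Bleomycin and saline libraries did not overlap for 15 members in CD31+ (38.5%, all genes 26.4%), 14 in CD45+ (35%, all genes 31.4%), 22 in EpCAM+ (56.4%, all genes 35.8%) and 11 in triple-negative cells (27.5%, all genes 29.7%). Only Ldha and Kdm3a were free of overlap in all 4 fractions. Eno1, Pkm and Ldha rose in all 4 fractions, and Pfkm, Slc2a3 and Kdm3a fell in all 4. Another 15 genes rose in some fractions and fell in others. In 1 to 3 fractions and in no opposite direction, 9 rose, among them Hif1a and Slc2a1, and 10 fell, among them Epas1, Pdk1 and Gapdh. Effects of bleomycin differed between fractions for 34 of the 40 genes, against 64.3% of all genes, by 1 F test of the fraction-by-treatment terms.

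Markers of other cells moved with treatment. In CD31+ libraries 7 of 12 leukocyte markers rose, and their summed level ran from 546.5 to 1016.6 CPM after bleomycin and from 434.3 to 590.1 in saline. There 4 of 8 macrophage markers rose and 1 fell (528.5 to 4066.5 against 248.9 to 650.5 CPM). The summed macrophage markers held 24905.3 to 32883.7 CPM in saline EpCAM+ libraries, so this sum is not particular to macrophages. Of the epithelial markers 3 of 12 rose in CD31+ libraries (488.5 to 6772.4 against 152.2 to 1014.9), and all 6 cell cycle markers rose (264.6 to 713.4 against 23.8 to 27.7). Smooth muscle and pericyte markers fell, 5 of 6 (40.3 to 68.6 against 103.2 to 416). Of the mesenchymal markers 5 of 12 fell and 0 rose (301.6 to 1444.7 against 371.2 to 932.7). With the mean leukocyte marker level as a covariate, 8 members rose in CD31+ cells, namely Aldoc, Ldha, Slc2a1, Hif1a, Egln3, Ankrd37, Ndrg1 and Car12. Then 4 fell, namely Gapdh, Slc2a3, Kdm3a and Pfkfb4, whose change turned from 0.69 (0.171) to -0.67 (0.0339), while the falls of Pfkm, Epas1, Arnt and Hif3a missed the threshold. The rises of Hk1, Hk2, Gpi1, Pfkl, Tpi1, Pgk1, Eno1, Pkm, Slc16a3, Bnip3, Ddit4 and Vhl missed it as well. In triple-negative cells the covariate ended the calls of Pgk1, Pdk1, Hif1a, Bnip3 and Adm (adjusted p from 0.0963 to 0.108). The covariate and treatment moved together. The fall in the count from 20 to 8 therefore does not separate them.

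In CD45+ libraries all 8 macrophage markers rose (17589.6 to 27328.2 against 5688.3 to 6823.1 CPM), all 5 lymphocyte markers found fell (288.7 to 450.9 against 691.6 to 922.3), and 3 of 6 neutrophil markers fell (669.5 to 3698.2 against 2058.7 to 3599.6). There 3 of 12 mesenchymal markers rose (197.2 to 8293.3 against 139.2 to 364.9). In EpCAM+ libraries all 5 alveolar type II markers fell (60097.7 to 99579.7 against 147886.8 to 163816.5), while 4 of 5 alveolar type I (2739.8 to 3453.9 against 2052 to 2538.5), 4 of 5 ciliated (653.2 to 1516.8 against 394.1 to 572.4) and all 6 cell cycle markers rose (205.7 to 332.6 against 22.2 to 53.1). In triple-negative libraries 5 of 6 smooth muscle and pericyte markers fell (1276.5 to 3218.1 against 3461.9 to 7094.4), and all 6 cell cycle markers rose (89.8 to 227.7 against 9.04 to 13.7). Of 12 markers each, 5 epithelial ones rose there (405.7 to 1254.2 against 175.6 to 1093), while 6 leukocyte ones fell and 1 rose (87.9 to 344.2 against 110.4 to 338.5). The part of these shifts in the members' changes was not tested outside the covariate fits. None of the listed markers was at 0 in every library of a fraction.

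**Figure D2:**
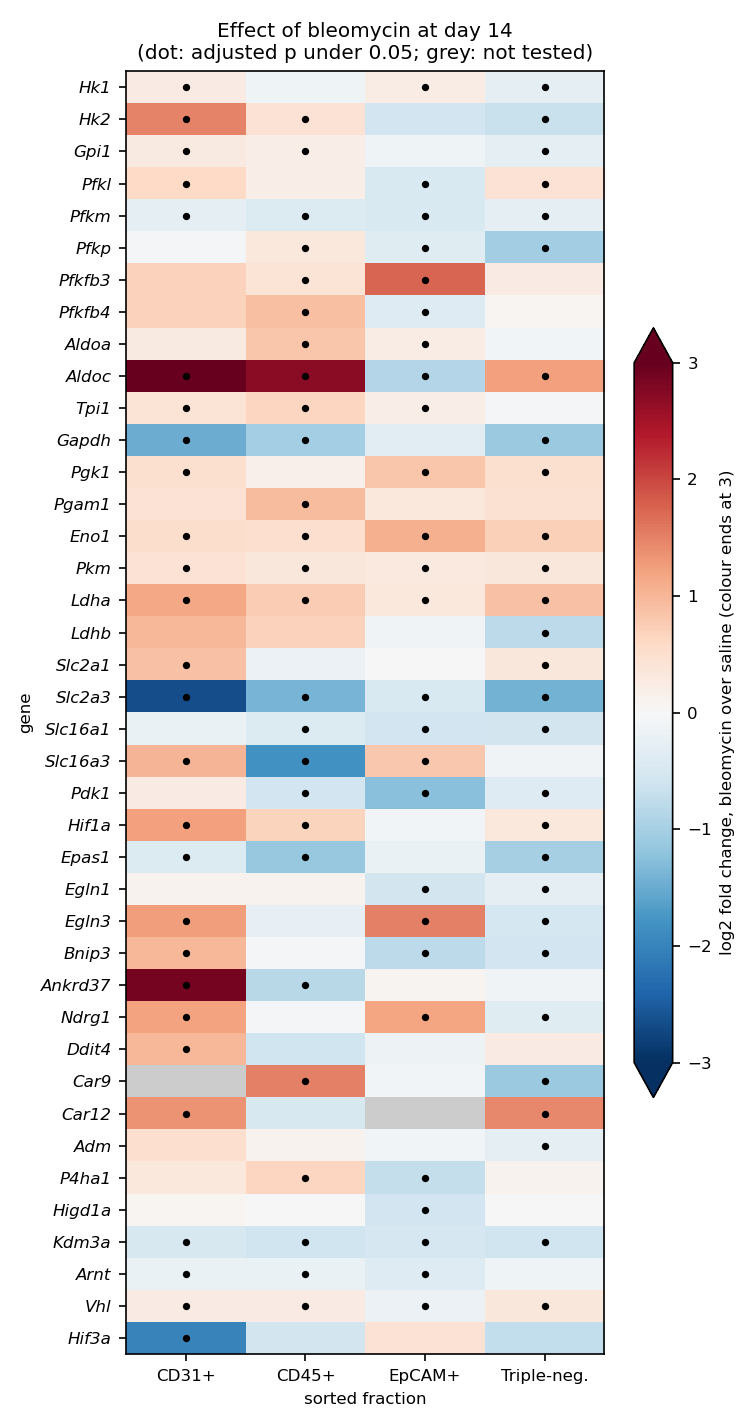
Log2 fold change of each gene, bleomycin over saline, in the 4 fractions; red is higher and blue lower after bleomycin, dots mark an adjusted p under 0.05, grey cells were not tested and the colour ends at 3. The Ldha, Pkm and Eno1 rows are red with 4 dots each, the Slc2a3, Pfkm and Kdm3a rows blue with 4 dots each.

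Ldha, the lactate dehydrogenase subunit that favours lactate, rose in every fraction. In CD31+ cells the saline libraries held 62.0, 63.6, 77.1, 77.7 and 77.9 CPM, and the bleomycin libraries ran from 110.6 over a median of 166.6 to 195.9. In CD45+ cells the saline values were 189.2, 194.6, 201.8, 205.5 and 213.7, and the bleomycin values went from 289.7 (median 335.8) to 380.1. In EpCAM+ cells saline libraries held 208.8, 209.0, 211.7, 217.0 and 218.4 CPM against 239.0, 266.9 and 287.4 as lowest, median and highest after bleomycin. All bleomycin libraries lay above all saline libraries in these fractions, as they did in triple-negative cells, where saline held 81.4, 84.0, 90.4, 101.2 and 108.6 CPM and bleomycin 130.7 to 203.8 with a median of 182.5. The log2 fold changes were 1.16 ± 0.14 (standard error, SE) in CD31+, 0.76 ± 0.08 in CD45+, 0.31 ± 0.05 in EpCAM+ and 0.89 ± 0.12 in triple-negative cells (edgeR, adjusted p = 3.91e-05, 1.38e-06, 5.28e-05 and 2.59e-05), and they differed between fractions (adjusted p = 2.12e-05). Of the 3 windows printed above, that of Ldha is the one with CACGTG. In the Ldha transcript 16.6% of 50-base stretches recur in other genes or pseudogenes, so its level is in part uncertain.

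Pkm, the pyruvate kinase, rose by 0.44, 0.34, 0.29 and 0.34 on the log2 scale in CD31+, CD45+, EpCAM+ and triple-negative cells (adjusted p = 0.00134, 0.0024, 0.00128 and 0.00336). In CD31+ cells it held 128.1, 129.2, 132.6, 140.4 and 141.3 CPM in saline and 143.1 to 213.0 (median 191.1) after bleomycin, so the groups were apart. Its groups were also apart in EpCAM+ cells, and they overlapped in CD45+ and triple-negative cells. Eno1, the enolase, rose most in EpCAM+ cells, by 1.07 ± 0.11 (5.12e-07), from 11.2, 11.4, 11.6, 12.0 and 13.0 CPM in saline to between 18.8 and 31.6 (median 24.7). Its other log2 fold changes were 0.52, 0.50 and 0.72 in CD31+, CD45+ and triple-negative cells (0.0085, 0.000355 and 0.000869), with overlap in the first and last. With leukocyte markers as a covariate the CD31+ rises became 0.30 for Pkm (0.06) and 0.25 for Eno1 (0.283). Of 50-base stretches of the transcripts, 72.2% in Eno1 and 34.4% in Pkm recur in other genes or pseudogenes, and the handling of such reads in the authors' counting was not given, so both levels are uncertain.

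Slc2a3 fell in all fractions. In CD45+ cells, where it was most abundant, saline libraries held 113.4, 145.5, 154.9, 180.4 and 191.2 CPM and bleomycin libraries 44.4 to 110.7 with a median of 51.3, a log2 fold change of -1.39 ± 0.21 (adjusted p = 0.000102). In CD31+ cells it went from 2.81, 6.06, 8.15, 11.5 and 11.8 CPM to between 0.85 and 1.96 (median 1.03), a change of -2.66 ± 0.33 (4.3e-05) and the largest fall of a member in any fraction. Saline triple-negative libraries held 14.4, 15.7, 16.5, 17.9 and 21.0 CPM and bleomycin libraries 5.66 to 7.62 (median 6.21), a change of -1.41 ± 0.10 (1.79e-07). All bleomycin libraries lay below all saline ones in these 3 fractions. In EpCAM+ cells it was low, at 2.23, 2.23, 2.51, 2.54 and 2.69 CPM in saline and 1.09 to 2.75 (median 1.59) after bleomycin, and the groups overlapped. That change of -0.47 (0.0413) missed the threshold without any one of Saline_EpCAM_654, Saline_EpCAM_655, Saline_EpCAM_656, Saline_EpCAM_657 and Saline_EpCAM_658 or Bleomycin_EpCAM_631, Bleomycin_EpCAM_632, Bleomycin_EpCAM_633, Bleomycin_EpCAM_634 and Bleomycin_EpCAM_635, with adjusted p from 0.0509 to 0.0872, and in a joint fit of all 51 libraries (0.137).

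Kdm3a, a histone demethylase and known HIF target, fell in each fraction, by -0.48, -0.60, -0.50 and -0.59 in CD31+, CD45+, EpCAM+ and triple-negative cells (adjusted p = 4.02e-05, 0.000183, 2.32e-07 and 2.53e-05). In EpCAM+ cells the saline values were 65.7, 66.6, 67.5, 67.8 and 69.4 CPM and the bleomycin values 42.9 to 50.3 with a median of 48.3. The saline and bleomycin libraries stood apart in every fraction. Pfkm, the muscle-type phosphofructokinase subunit, fell by -0.29, -0.41, -0.46 and -0.27 (0.00916, 0.00381, 4.8e-05 and 0.00208), with no overlap in CD45+ and EpCAM+ cells. The difference between fractions did not pass the test for Kdm3a, Pfkm or Pkm, nor for Pgam1, Slc16a1 and Adm.

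**Figure D3:**
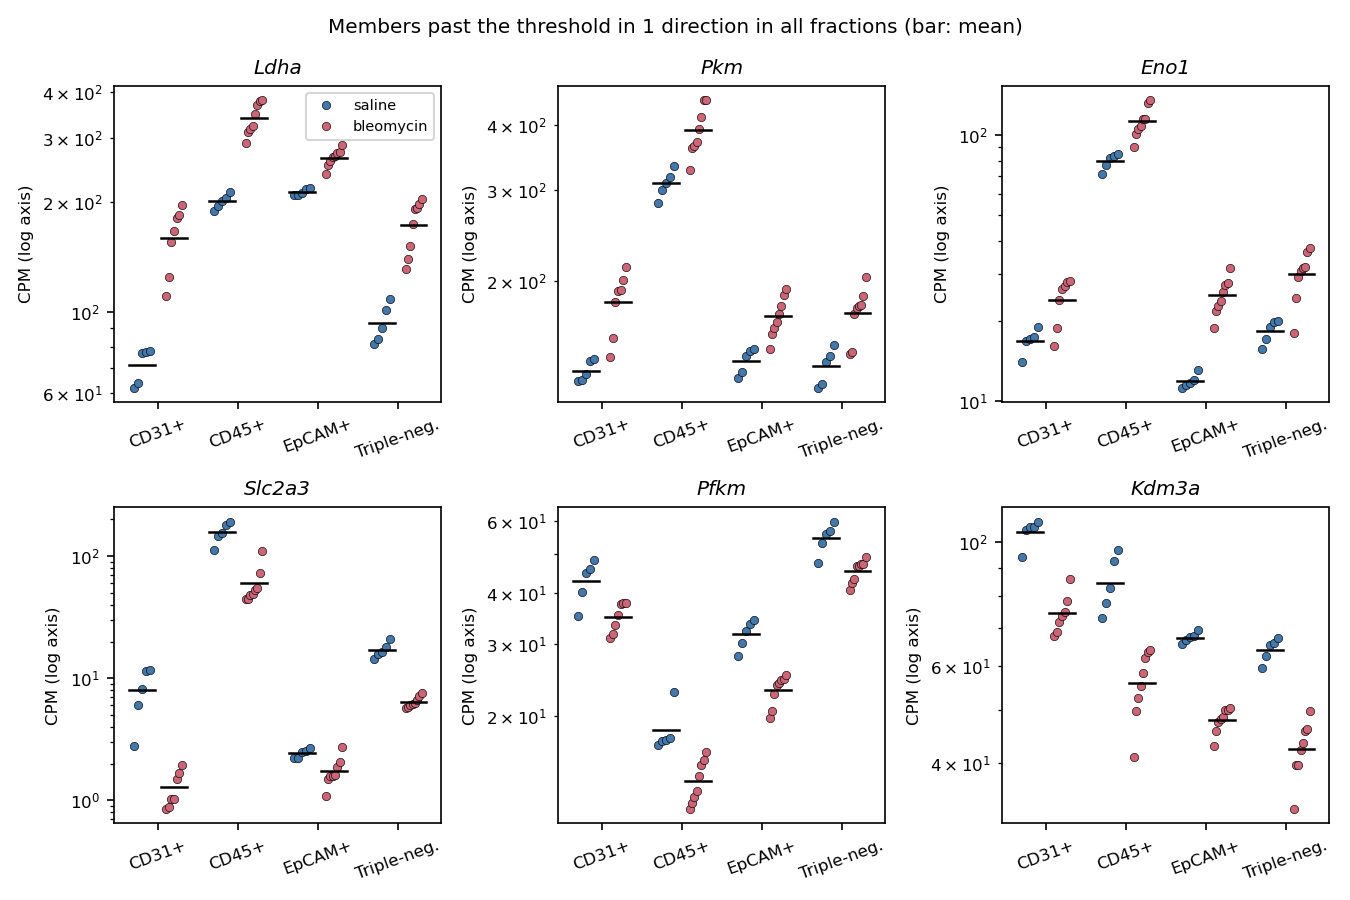
Levels in each library, in CPM on a log axis scaled within fractions, of the 3 genes that rose (upper row) and the 3 that fell (lower row) in all 4 fractions; blue points are saline, red points bleomycin libraries, and bars are means. The Ldha and Kdm3a groups are apart in every fraction.

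At the entry to glycolysis, the basal glucose transporter Slc2a1 rose in CD31+ cells, from 17.3, 19.1, 19.2, 20.7 and 21.3 CPM in saline to between 22.8 and 50.3 (median 36.0) after bleomycin. The groups did not overlap there, and the log2 fold change was 0.87 ± 0.16 (adjusted p = 0.000803). It rose by 0.34 ± 0.09 in triple-negative cells (0.00659) with overlap, and its changes of -0.17 in CD45+ and -0.01 in EpCAM+ cells did not pass (0.186 and 0.916). Hk1 rose in CD31+ (0.25, 0.016) and EpCAM+ cells (0.23, 0.00127) and fell in triple-negative cells (-0.30, 0.00403). In the EpCAM+ fraction Hk1 went from 90.7, 97.1, 101.5, 102.0 and 102.5 CPM to between 107.7 and 125.4 (median 112.3) without overlap.

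Hk2 rose from 56.5, 59.2, 59.3, 66.4 and 72.1 CPM to between 71.4 and 99.8 (median 86.1) in CD45+ cells, a log2 fold change of 0.42 ± 0.09 (adjusted p = 0.000913) with the groups just overlapping, which was lost in the joint fit (0.247). In triple-negative cells it fell, from 35.2, 35.7, 48.9, 53.3 and 83.7 CPM to between 26.4 and 39.5 (median 31.0), by -0.68 ± 0.19 (0.00684), or by -0.43 (0.0178) without Saline_Negative_660. In EpCAM+ cells the saline libraries held 88.8, 97.2, 99.9, 126.3 and 141.1 CPM. All but 1 bleomycin library lay below them, between 49.4 and 79.0, while Bleomycin_EpCAM_631 held 161.8 CPM. The change of -0.56 did not pass (0.0743), and without that library it was -0.83 (0.000103). In CD31+ cells Hk2 was scarce, at 0.542, 1.74, 1.88, 2.07 and 2.81 CPM in saline and 2.24 to 13.0 (median 3.32) after bleomycin. That rise of 1.48 ± 0.50 (0.0267) missed the threshold without Saline_CD31_649, Saline_CD31_652 or Saline_CD31_653 (0.0544, 0.0551 and 0.051). With leukocyte markers as a covariate it became 0.09 (0.88).

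Gpi1, which turns glucose 6-phosphate into fructose 6-phosphate, changed little, by 0.27 in CD31+, 0.20 in CD45+ and -0.28 in triple-negative cells (adjusted p = 0.00763, 0.00554 and 0.00291), and its groups overlapped in each. The phosphofructokinase subunits, which form the committed step, moved apart. Pfkp, the platelet-type subunit, fell by -1.03 ± 0.08 in triple-negative cells (2.36e-07), from 179.4, 186.5, 201.1, 217.8 and 218.7 CPM to between 87.8 and 112.8 (median 96.8). The groups were wide apart there, whereas in CD45+ cells Pfkp rose by 0.32 (0.00479) from 189.0, 212.2, 215.2, 223.4 and 224.0 CPM to between 206.1 and 300.7 (median 273.2) with overlap. Pfkl, the liver-type subunit, rose in triple-negative cells by 0.43 ± 0.08 (0.000306), from 33.1, 34.5, 39.2, 39.6 and 46.0 CPM to between 46.6 and 55.7 (median 50.8), and in CD31+ cells by 0.59 (0.00668). It fell in EpCAM+ cells by -0.46 ± 0.06 (4.01e-06), from 76.3, 89.2, 89.5, 92.4 and 97.0 CPM to between 61.5 and 70.4 (median 64.0), again with no overlap.

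Pfkfb3, the bifunctional enzyme that mostly makes fructose 2,6-bisphosphate, showed the largest rise of a member in EpCAM+ cells. Saline libraries held 5.58, 5.6, 6.0, 6.08 and 6.41 CPM and bleomycin libraries 14.5 to 27.4 with a median of 19.6, a log2 fold change of 1.74 ± 0.14 (adjusted p = 8.57e-08) with no overlap. It also rose in CD45+ cells by 0.42 (0.00053), which was lost in the joint fit (0.099). In CD31+ cells its change of 0.70 did not pass (0.0549) but passed in the DESeq2 test (0.0463) and without Bleomycin_CD31_620, Bleomycin_CD31_622 or Bleomycin_CD31_626 or Saline_CD31_651 (0.0351, 0.0288, 0.0311 and 0.0436). The related Pfkfb4 rose in CD45+ cells by 0.91 ± 0.08 (3.16e-07), from 88.7, 89.7, 92.5, 94.0 and 102.3 CPM to between 151.8 and 212.4 (median 171.0), and fell in EpCAM+ cells by -0.39 (0.00656) with overlap, which was lost in the joint fit (0.101).

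Among the aldolases, Aldoc, the brain-type isozyme, had the largest log2 fold change of all 40 genes. In CD31+ cells it went from 0.125, 0.209, 0.226, 0.344 and 0.522 CPM to between 1.6 and 6.79 (median 3.84), a rise of 3.77 ± 0.42 (adjusted p = 1.75e-05). In CD45+ cells it went from 4.88, 6.64, 7.34, 8.67 and 11.2 CPM to between 47.5 and 57.4, a rise of 2.71 ± 0.16 (8.67e-09). Both rises left no overlap, and in EpCAM+ cells there was none in the other direction, from 15.0, 16, 16.9, 18.5 and 22.3 CPM down to between 8.26 and 10.7 (median 9.8), a change of -0.88 ± 0.10 (1.49e-06). In triple-negative cells it rose by 1.24 ± 0.39 (0.015) from a mean of 0.599 ± 0.365 CPM (SD, n = 5) to 1.4 ± 0.623 (n = 8) with overlap. The CD31+ rise of Aldoc rests on 3 to 13 counts per library in saline and 36 to 163 after bleomycin. In those CD31+ libraries 7 of 12 leukocyte markers rose, and Aldoc also rose in leukocytes. The part of leukocytes in the CD31+ rise was not tested outside the covariate fit. The Aldoc window printed above holds CACGT at 1 place, near the end of the printed sequence. Aldoa, the main isozyme, rose by 0.83 in CD45+ (1.22e-06) and 0.22 in EpCAM+ cells (0.00564) without overlap.

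Of the enzymes that follow, Tpi1, the triose phosphate isomerase, rose by 0.63 in CD45+ (adjusted p = 7.58e-06), 0.19 in EpCAM+ (0.00479, in the joint fit 0.1) and 0.42 in CD31+ cells (0.0249), the last not without Saline_CD31_649 (0.35, 0.0674). Pgk1, the phosphoglycerate kinase, rose by 0.84 in EpCAM+ (0.000209) and 0.47 in CD31+ cells (0.0186). Its rise of 0.47 in triple-negative cells (0.0334) was lost without any one of Bleomycin_Negative_637, Bleomycin_Negative_638 and Bleomycin_Negative_640 or Saline_Negative_659, Saline_Negative_661 and Saline_Negative_663 (0.0508 to 0.0924). Gapdh, often used as a reference gene, fell by -1.49 in CD31+ (8.57e-06), -1.02 in CD45+ (1.91e-05) and -1.10 in triple-negative cells (0.000389). Its levels were low for a gene usually among the most abundant, with a saline mean of 3.87 ± 0.45 CPM in CD31+ cells (SD, n = 5), and 208 pseudogenes share its sequence. Pgam1, the phosphoglycerate mutase, rose in CD45+ cells by 0.96 (0.0328), from 0.69 ± 0.364 CPM (SD, n = 5) to 1.35 ± 0.431 (n = 8), which was lost without any one of Bleomycin_CD45_613 and Bleomycin_CD45_619 or Saline_CD45_645, Saline_CD45_646 and Saline_CD45_648 (0.0533 to 0.077). Of 50-base stretches, 68% in Pgk1, 41.5% in Pgam1 and 27.8% in Gapdh recur elsewhere, so counts for these genes are uncertain. The shares were 27% in Ldhb, 16.6% in Ldha and 13.5% in Aldoa, whose counts carry the same kind of uncertainty.

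At the fate of pyruvate, Ldhb fell in triple-negative cells, from 12.7, 16.6, 16.7, 17.0 and 17.2 CPM to between 6.4 and 10.4 (median 9.75), by -0.77 ± 0.11 (adjusted p = 4.28e-05) with no overlap. In EpCAM+ cells, its main site, it changed by -0.10 (0.184). In CD45+ cells Saline_CD45_646 held 24.3 CPM and the other saline libraries 4.55 to 9.01, against 10.7 to 21.2 after bleomycin. The change there was 0.68 (0.133), and without that library 1.37 (0.000139). In CD31+ cells the change of 0.99 (0.0718) passed without Bleomycin_CD31_622 (1.11, 0.0439). Pdk1, the kinase that shuts pyruvate dehydrogenase, fell by -1.25 ± 0.08 in EpCAM+ cells (7.77e-09), from 54.5, 54.5, 57.1, 61.0 and 65.2 CPM to between 19.6 and 28.8 (median 23.8), all below saline. It fell by -0.58 in CD45+ cells (0.000753). Its fall of -0.39 in triple-negative cells (0.0331) was lost without any one of Bleomycin_Negative_636, Bleomycin_Negative_637, Bleomycin_Negative_640 and Bleomycin_Negative_642 or Saline_Negative_659, Saline_Negative_661 and Saline_Negative_663 (0.0531 to 0.112).

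Slc16a3, which exports lactate from glycolytic cells, fell in leukocytes and rose in epithelium. It went from 219.4, 276.0, 286.1, 395.4 and 434.5 CPM to between 75.2 and 125.8 (median 86.6) in CD45+ cells, a fall of -1.82 ± 0.16 (adjusted p = 7.23e-07) with wide separation. In EpCAM+ cells it rose from 5.74, 8.35, 8.55, 9.2 and 10.1 CPM to between 10.7 and 26.2 (median 13.8), by 0.82 ± 0.21 (0.00377), also without overlap. In CD31+ cells it rose by 1.02 (0.0395), from 4.65 ± 1.53 CPM (SD, n = 5) to 9.47 ± 4.76 (n = 7). That call was lost without any one of Bleomycin_CD31_620, Bleomycin_CD31_621, Bleomycin_CD31_624 and Bleomycin_CD31_625 or Saline_CD31_649, Saline_CD31_652 and Saline_CD31_653 (0.0539 to 0.0926), and the change became -0.05 with leukocyte markers as a covariate. Slc16a1, which carries lactate in either direction, fell by -0.57 in EpCAM+ (0.00159) and -0.56 in triple-negative cells (0.00777). Its fall of -0.40 in CD45+ cells (0.0299) was lost without Saline_CD45_646 (-0.15, 0.0896) or Bleomycin_CD45_615 (0.0518), and in the joint fit (0.0862).

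Of the HIF alpha subunits, Hif1a rose and Epas1 fell. Hif1a in CD31+ cells held 58.8, 59.1, 59.2, 61.0 and 61.7 CPM in saline and 98.2 to 173.5 (median 148.9) after bleomycin, a rise of 1.24 ± 0.12 (adjusted p = 6.89e-06). In CD45+ cells it held 72.5, 76.3, 90.9, 95.5 and 99.8 CPM against 105.6 to 183.2 (median 137.9), a rise of 0.67 ± 0.12 (0.000208). The groups were apart in both fractions. In EpCAM+ cells its change was -0.09 (0.291), and its rise of 0.31 in triple-negative cells (0.0311) was lost without any one of Bleomycin_Negative_637, Bleomycin_Negative_638 and Bleomycin_Negative_640 or Saline_Negative_659, Saline_Negative_660 and Saline_Negative_661 (0.053 to 0.0843).

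Epas1 in CD31+ cells held 9394.7, 9849.0, 10152.9, 10507.5 and 10626.9 CPM in saline and 6404.0 to 8701.3 (median 7638.9) after bleomycin, a fall of -0.42 ± 0.09 (adjusted p = 0.00182) with no overlap. That call was lost in the joint fit of all libraries (0.0746) and with leukocyte markers as a covariate (0.0556). In the same libraries 3 of 12 endothelial markers fell and 1 rose, and their summed level ran from 18331.4 to 22369.6 CPM after bleomycin and from 22907.4 to 25681.4 in saline. Their part in the fall was not tested. In triple-negative cells Epas1 went from 416.7, 470.3, 491.2, 605.9 and 842.0 CPM to between 211.3 and 376.3 (median 283.7), by -0.99 ± 0.18 (0.000284), again without overlap. There 4 of 12 endothelial markers fell and 0 rose, with a summed level of 281.9 to 548.7 CPM after bleomycin and 360.1 to 1036.1 in saline. In CD45+ cells Epas1 fell by -1.15 ± 0.25 (0.00147) from 160.4, 200.3, 314.6, 440.7 and 489.3 CPM to between 96.5 and 206.3 (median 143.2) with overlap. In the same libraries 11 of 12 endothelial markers fell, and their summed level ran from 268.4 to 569.2 CPM after bleomycin and from 466.3 to 1204.7 in saline. The part of endothelial cells in the triple-negative and CD45+ falls was not tested. The change of -0.20 in EpCAM+ cells did not pass (0.0678) but did without Bleomycin_EpCAM_629 (-0.25, 0.0173). Hif3a, whose product can restrain the other subunits, fell in CD31+ cells by -1.998 (0.00767) from 0.563, 0.604, 0.709, 0.792 and 1.67 CPM to between 0.0 and 0.534 (median 0.178). Its change of -0.75 in triple-negative cells (0.0605) passed without Bleomycin_Negative_639 (-1.03, 0.00187).

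The partner and the brakes of HIF come next. Arnt, the shared beta subunit, fell by -0.21 in CD31+, -0.20 in CD45+ and -0.39 in EpCAM+ cells (adjusted p = 0.00353, 0.00646 and 2.93e-05), and its -0.13 in triple-negative cells (0.0763) passed without Bleomycin_Negative_639 (0.0485). Vhl, the ubiquitin ligase subunit, rose in CD31+, CD45+ and triple-negative cells by 0.24, 0.25 and 0.33 (0.00466, 0.0098 and 0.00145). In triple-negative cells it went from 18.5, 21.4, 22.8, 22.8 and 23.1 CPM to between 25.2 and 30.9 (median 26.5) with no overlap. Its fall of -0.17 in EpCAM+ cells (0.0399) was lost without any one of Bleomycin_EpCAM_630, Bleomycin_EpCAM_632, Bleomycin_EpCAM_634 and Bleomycin_EpCAM_635 or Saline_EpCAM_654, Saline_EpCAM_655 and Saline_EpCAM_657 (0.0517 to 0.11). Egln1, the main oxygen-sensing prolyl hydroxylase, fell by -0.55 in EpCAM+ (5.04e-06) and -0.29 in triple-negative cells (0.000748), and its 0.11 in CD45+ cells (0.191) passed without Saline_CD45_646 (0.0431).

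Egln3, a prolyl hydroxylase that is itself a HIF target, rose in EpCAM+ cells, where it was scarce, from 0.186, 0.279, 0.35, 0.408 and 0.513 CPM to between 0.631 and 1.78 (median 0.932), by 1.52 ± 0.32 (adjusted p = 0.000778). The groups were apart there. It rose by 1.25 ± 0.30 in CD31+ cells (0.00425), from 1.0, 1.17, 1.62, 1.88 and 2.17 CPM to between 2.05 and 6.42 (median 3.46), with slight overlap. In triple-negative cells, its main site, it fell by -0.52 ± 0.13 (0.00428), from 12.0, 12.5, 14.4, 15.9 and 17.2 CPM to between 7.04 and 12.1 (median 10.6).

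Among other HIF targets, Ankrd37, an ankyrin repeat gene strongly induced by HIF, rose in CD31+ cells and fell in CD45+ cells. In CD31+ cells the saline libraries held 6.17, 7.21, 8.48, 10.3 and 11.6 CPM and the bleomycin libraries 12.0 to 92.7 with a median of 69.4, a rise of 2.87 ± 0.41 (adjusted p = 0.000158). All bleomycin libraries lay above saline, the lowest only just. In CD45+ cells it went from 5.16, 6.85, 7.53, 9.04 and 9.12 CPM to between 2.87 and 5.9 (median 4.3), by -0.84 ± 0.18 (0.00131) with slight overlap. The Ankrd37 window printed above holds ACGTG at 2 places. Its exons overlap Ufsp2 and Lrp2bp on the other strand over 26.4% of their bases, and the strand setting of the counting was not given. Ufsp2 rose by 0.34 in CD31+ cells (0.00178) and Lrp2bp changed by 0.56 (0.236).

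Ndrg1 rose in CD31+ cells from 73.4, 83.9, 84.0, 91.5 and 99.3 CPM to between 135.7 and 244.2 (median 211.6), by 1.21 ± 0.14 (adjusted p = 2.03e-05). It also rose in EpCAM+ cells, by 1.19 ± 0.16 (1.68e-05), from 8.27, 9.62, 10.1, 10.4 and 11.6 CPM to between 16.8 and 32.6 (median 21.4). The groups were apart in both. In triple-negative cells it fell by -0.36 ± 0.09 (0.00304), from 118.8, 136.4, 155.6, 159.9 and 171.0 CPM to between 101.9 and 132.0 (median 113.7), with overlap.

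The carbonic anhydrases handle acid from glycolysis. Car9 rose in CD45+ cells from 2.52, 2.68, 2.81, 2.86 and 3.49 CPM to between 7.22 and 10.1 (median 7.96), by 1.52 ± 0.13 (adjusted p = 2.27e-07). In triple-negative cells it fell from 6.47, 6.99, 8.28, 8.55 and 8.77 CPM to between 2.15 and 5.16 (median 3.37), by -1.11 ± 0.17 (7e-05). Neither change left an overlap. Car12 was scarce throughout, and rose by 1.44 ± 0.38 in triple-negative (0.00488) and 1.36 ± 0.41 in CD31+ cells (0.0142) with overlap. In EpCAM+ cells it was at 0.0536 ± 0.0515 CPM (SD, n = 5) in saline and 0.262 ± 0.0798 (n = 8) after bleomycin, where the filter on low counts left it out of the fit. With no filter it rose there by 2.19 (0.00468), by DESeq2 by 2.31 (0.00402) and in the joint fit of all libraries by 2.21 (0.00115). In CD45+ cells its -0.48 (0.106) passed without Bleomycin_CD45_618 (-0.59, 0.0498).

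P4ha1, a collagen prolyl hydroxylase, rose in CD45+ cells from 52.9, 59.4, 61.1, 61.2 and 71.8 CPM to between 68.9 and 123.9 (median 99.5), by 0.65 ± 0.12 (adjusted p = 0.000314). It fell in EpCAM+ cells from 214.7, 216.8, 218.2, 241.9 and 271.4 CPM to between 110.5 and 179.4 (median 143.9), by -0.73 ± 0.10 (2.7e-05) without overlap. In triple-negative cells, which hold the collagen-producing cells, its change of 0.10 did not pass (0.568). Bnip3, a mitophagy receptor, rose in CD31+ cells by 0.99 ± 0.23 (0.00329), from 1.4, 1.42, 1.46, 1.52 and 1.69 CPM to between 2.04 and 5.4 (median 2.62). It fell in EpCAM+ cells by -0.79 ± 0.15 (0.00025), from 5.71, 5.78, 6.36, 6.48 and 7.81 CPM to between 2.88 and 5.05 (median 3.53). Neither left an overlap, while its fall of -0.59 in triple-negative cells (0.0261) was -0.36 (0.119) without Saline_Negative_661. Of its 50-base stretches 62.4% recur elsewhere. With leukocyte markers as a covariate the CD31+ rise of Bnip3 became 0.76 (0.0772).

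The remaining targets changed in 1 fraction each. Ddit4, a brake on mTOR signalling, rose in CD31+ cells by 0.99 (adjusted p = 0.0446), from 42 ± 12.8 CPM (SD, n = 5) to 83.5 ± 44.4 (n = 7). That call was lost without any one of Bleomycin_CD31_621, Bleomycin_CD31_622, Bleomycin_CD31_623 and Bleomycin_CD31_624 or Saline_CD31_649, Saline_CD31_650, Saline_CD31_652 and Saline_CD31_653 (0.0503 to 0.0999). In CD45+ cells its -0.61 (0.08) passed without Bleomycin_CD45_614 or Bleomycin_CD45_616 (0.0292 and 0.0257). Adm fell in triple-negative cells by -0.29 (0.0216), not without Saline_Negative_659 (-0.21, 0.0787) and not in the joint fit (0.409). Higd1a, a mitochondrial protein gene, fell in EpCAM+ cells by -0.57 (0.000102), from 22.5 ± 1.73 CPM (SD, n = 5) to 15.2 ± 2.08 (n = 8), with no overlap. Of its 50-base stretches 36.6% recur elsewhere and 22.5% of its exon bases overlap a gene on the other strand, so its counts are uncertain.

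The 6 genes whose effects differed most clearly between fractions were Pfkp, Aldoc, Ndrg1, Ankrd37, Car9 and Slc16a3 (adjusted p from 4.69e-15 to 6.39e-09 in the joint fit of all 51 libraries). For Pfkp the effect in CD45+ cells exceeded that in triple-negative cells by 1.32 on the log2 scale (3.27e-15). For Aldoc the CD31+ effect exceeded the EpCAM+ one by 4.66 (2.97e-12), and the CD45+ effect exceeded it by 3.54 (1.48e-12). The CD31+ rise of Ankrd37 exceeded its effect in CD45+, EpCAM+ and triple-negative cells by 3.77, 2.81 and 3.01 (5.92e-11, 1.54e-07 and 4.48e-07). For Ndrg1 the CD31+ and EpCAM+ effects differed by 0.05 (0.885), and each exceeded the triple-negative one, by 1.61 and 1.56 (2.45e-09 and 3.79e-09). Car9 differed by 2.59 between CD45+ and triple-negative cells (5.61e-11), and Slc16a3 by 2.90 between CD31+ and CD45+ cells (3.38e-08). For Hif1a the CD31+ effect exceeded the CD45+ one by 0.63 (0.00118) and the EpCAM+ one by 1.35 (4.49e-09).

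**Figure D4:**
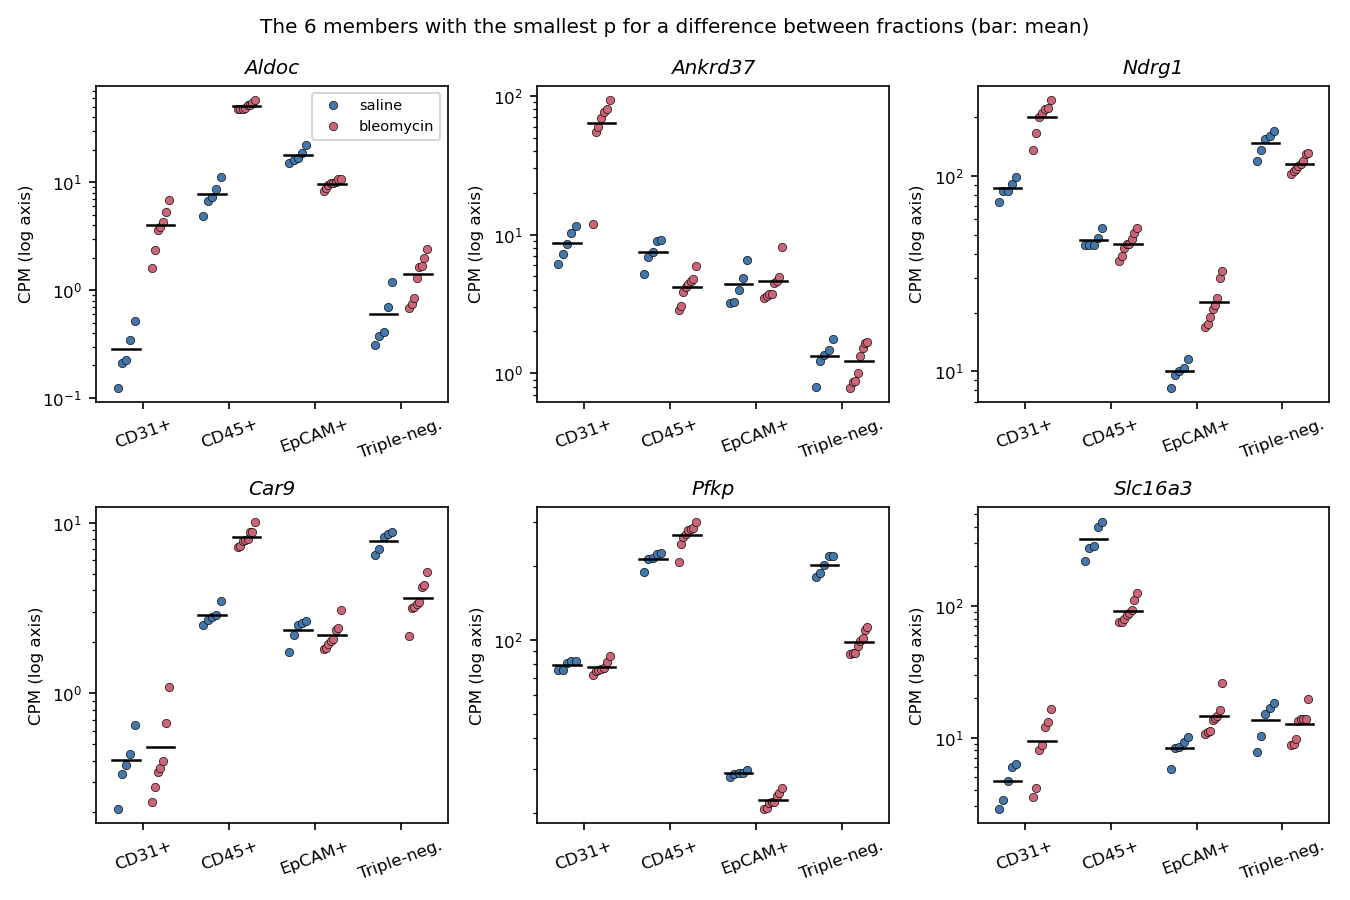
Levels in each library, in CPM on a log axis scaled within fractions, of the 6 genes with the smallest p for a difference in effect between fractions; blue points are saline, red points bleomycin libraries, and bars are means. Aldoc rises in CD31+ and CD45+ and falls in EpCAM+ cells, and Ankrd37 stands high after bleomycin in CD31+ cells except in 1 library at 12.0.

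Ratios of the counts of related genes within a library, not corrected for length, do not depend on how libraries are scaled. Of 32 differences in mean log2 ratio, 8 pairs in 4 fractions, 22 passed an exact two-sided permutation test adjusted over the 32. The smallest p these tests can give is 0.00126 in CD31+ and 0.000777 in the other fractions. Epas1 over Hif1a fell by -1.64 in CD31+ cells, from 7.40 ± 0.07 (SD of log2 ratio, n = 5) to 5.75 ± 0.38 (n = 7), with an adjusted p of 0.00269 by the exact permutation test. It fell by -1.71 in CD45+ and -1.27 in triple-negative cells (exact permutation, adjusted p = 0.00207 and 0.00311) and differed by -0.11 in EpCAM+ cells (0.226). Slc2a3 over Slc2a1 fell by -3.37, -1.29 and -1.74 in CD31+, CD45+ and triple-negative cells (exact permutation, adjusted p = 0.00269, 0.00207 and 0.00207). Its -0.49 in EpCAM+ cells (exact permutation, adjusted p = 0.0452) was lost when any one of 12 libraries of that fraction, all but Bleomycin_EpCAM_629, was left out (0.0514 to 0.102).

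Ldhb over Ldha fell by -1.66 in triple-negative and -0.41 in EpCAM+ cells (exact permutation, adjusted p = 0.00207 each). Hk2 over Hk1 rose by 0.56 in CD45+ cells and fell by -0.87 in EpCAM+ cells (exact permutation, adjusted p = 0.00207 and 0.0178). Pfkp over Pfkl fell by -1.47 in triple-negative cells (exact permutation, adjusted p = 0.00207), from a mean of 2.39 in saline to 0.92 after bleomycin. Aldoc over Aldoa rose by 3.47, 1.94 and 1.32 in CD31+, CD45+ and triple-negative cells and fell by -1.08 in EpCAM+ cells, all past the threshold. Slc16a3 over Slc16a1 fell by -1.45 in CD45+ and rose by 1.34 in EpCAM+ cells (exact permutation, adjusted p = 0.00207 each). Ratios with Ldha, Ldhb or Aldoa carry the uncertainty of the sequence that these genes share with others.

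**Figure D5:**
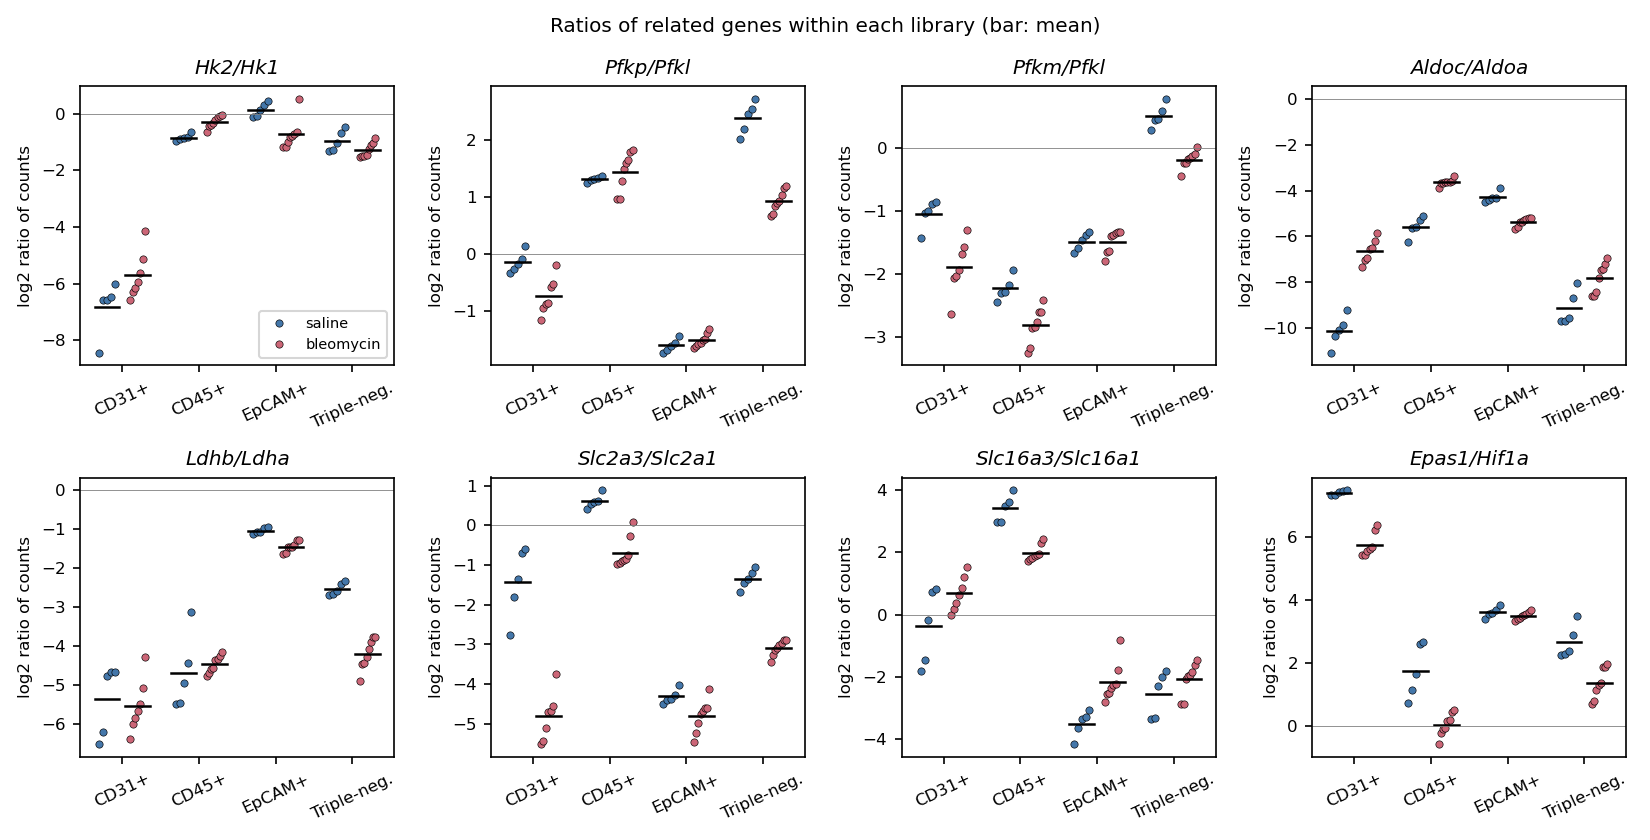
Log2 ratio of the counts of 2 related genes in each library, 0.5 added to each count, by fraction; blue points are saline, red points bleomycin libraries, and bars are means. Epas1 over Hif1a is lower after bleomycin in CD31+, CD45+ and triple-negative cells, and Aldoc over Aldoa moves up in CD31+, CD45+ and triple-negative cells and down in EpCAM+ cells.

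Other genes of the same pathways also moved in mixed directions. Of 43 further genes of glycolysis, the pentose phosphate path and pyruvate use, 12 of 38 tested rose and 4 fell in CD31+ cells, 18 and 6 of 35 in CD45+, 15 and 10 of 41 in EpCAM+, and 11 and 11 of 36 in triple-negative cells. Over all genes the shares that rose and fell were 27.7% each in triple-negative cells, 31.2% and 28.9% in EpCAM+, 28.4% and 26.8% in CD45+, and 24.2% and 24.6% in CD31+ cells, and several of these counts and of those that follow lie near them. In CD45+ cells the enolase Eno2 rose by 1.59 (adjusted p = 5.45e-06) and Pgd, of the pentose phosphate path, by 1.01 (9.99e-06), while the enolase Eno3 fell by -1.18 (1.79e-07). Bpgm, which makes 2,3-bisphosphoglycerate, rose by 2.55 in triple-negative cells (3.28e-06). Of 48 further hypoxia and HIF genes 47 were found and tested in every fraction, and 16 rose and 14 fell in triple-negative, 17 and 9 in CD31+, 17 and 17 in EpCAM+, and 11 and 15 in CD45+ cells. Vegfa, the endothelial growth factor, fell by -2.09 (3.13e-06) and the lipid droplet gene Hilpda by -1.62 (1.96e-05) in CD45+ cells. Among the members, Slc16a3 and Slc2a3 also fell there, while Aldoc, Car9, P4ha1 and Hif1a rose. The chemokine receptor gene Cxcr4 fell by -2.07 in CD31+ cells (7.64e-05).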

How the data were processed

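RNA was measured in 51 libraries of sorted lung cells. Per the labels' protocols, stranded total RNA libraries were made from RNeasy extracts. The authors deposited whole-number read counts per Entrez gene, not normalised, as 1 table and 51 files that match it in 51 of 51 libraries. The build is GRCm38, per the submitters' processing notes, and the aligner, counting program and use of strand are not given in the sources used here. RefSeq gave symbols for 31049 of 36528 identifiers, and 1.63% of counts had none.

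Groups came from the labels. Within each fraction, low counts were removed by filterByExpr, libraries scaled by TMM and treatments compared by the robust quasi-likelihood test of edgeR 4.0.16 in R 4.3.3, with Benjamini-Hochberg adjustment over all genes of the fraction at 0.05. All tests were two-sided. CPM uses TMM-scaled totals. One fit of all 51 libraries tested saline fractions and fraction-by-treatment terms. Ratios used 0.5 as a pseudocount and exact permutation. The steps were tested on simulated data. Alternatives were no filter, RLE factors, DESeq2 1.42.0, a joint fit, a marker covariate (leukocyte, or epithelial in CD45+ cells), each library left out, and, chosen after seeing the data, table position as a covariate. The design text's 5 saline and 8 bleomycin animals equal the libraries per group, except for the 7 CD31+ bleomycin libraries. No label ties a library to an animal, so p-values measure the spread between libraries. Counting error is small at 15.7 to 36.5 M (mega) counts except for scarce genes such as Car12 and Hif3a.

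Values in full are given for a gene pair of each main step, the largest changes of each fraction, the smallest interaction p-values, and genes past the threshold in all fractions or in opposite directions. The members, lists and comparisons were chosen with earlier results of these data known. Names, positions and promoter windows are those of RefSeq on GRCm38.p6.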

Additional observations from a re-analysis of the deposited data

Results flagged for a closer look

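Single libraries stood apart from the rest of their group for 20 of 232 groups of values tested, where chance alone gives about 1 in 20. In CD31+ bleomycin libraries, Pfkfb4 stood at 25.5 CPM in Bleomycin_CD31_621 against 4.76 to 10.8 in the others, Ldhb stood at 9.41 CPM in Bleomycin_CD31_621 against 1.86 to 3.62 in the others and Bnip3 stood at 5.4 CPM in Bleomycin_CD31_624 against 2.04 to 3.04 in the others. In CD31+ saline libraries, Kdm3a stood at 94.1 CPM in Saline_CD31_650 against 105.3 to 108.9 in the others and Hif3a stood at 1.67 CPM in Saline_CD31_653 against 0.563 to 0.792 in the others. In CD45+ bleomycin libraries, Hk1 stood at 120.8 CPM in Bleomycin_CD45_617 against 94.9 to 106.6 in the others and Slc2a3 stood at 110.7 CPM in Bleomycin_CD45_616 against 44.4 to 73.0 in the others. In CD45+ saline libraries, Pfkm stood at 22.8 CPM in Saline_CD45_646 against 16.9 to 17.6 in the others and Ldhb stood at 24.3 CPM in Saline_CD45_646 against 4.55 to 9.01 in the others. In EpCAM+ bleomycin libraries, Hk2 stood at 161.8 CPM in Bleomycin_EpCAM_631 against 49.4 to 79.0 in the others, Slc16a3 stood at 26.2 CPM in Bleomycin_EpCAM_632 against 10.7 to 16.3 in the others, Ankrd37 stood at 8.15 CPM in Bleomycin_EpCAM_632 against 3.47 to 4.94 in the others and Hif3a stood at 4.86 CPM in Bleomycin_EpCAM_631 against 1.0 to 2.77 in the others. In EpCAM+ saline libraries, Hif3a stood at 2.27 CPM in Saline_EpCAM_656 against 1.18 to 1.49 in the others. In triple-negative bleomycin libraries, Ldhb stood at 6.4 CPM in Bleomycin_Negative_638 against 9.01 to 10.4 in the others, Slc16a3 stood at 19.6 CPM in Bleomycin_Negative_637 against 8.77 to 13.9 in the others and Hif3a stood at 9.73 CPM in Bleomycin_Negative_639 against 1.87 to 5.22 in the others. In triple-negative saline libraries, Ldhb stood at 12.7 CPM in Saline_Negative_663 against 16.6 to 17.2 in the others, Slc2a1 stood at 36.1 CPM in Saline_Negative_663 against 43.7 to 46.1 in the others and Bnip3 stood at 3.65 CPM in Saline_Negative_661 against 1.73 to 2.16 in the others.

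The effect of bleomycin differed between fractions for 34 of the 40 genes in the joint edgeR fit. The adjusted p was 4.69e-15 for Pfkp, 3.33e-14 for Aldoc, 5.67e-12 for Ndrg1, 1.43e-10 for Ankrd37, 4.18e-10 for Car9, 6.39e-09 for Slc16a3, 6.44e-09 for Hif1a, 8.44e-09 for Egln1 and 1.48e-08 for Pdk1. It was 1.69e-07 for Pfkl, 5.81e-07 for Hk1, 5.98e-07 for Gpi1, 6.29e-07 for Egln3, 9.99e-07 for Aldoa, 1.51e-06 for Bnip3, 2.52e-06 for Slc2a1, 5.56e-06 for P4ha1 and 2.12e-05 for Ldha. Larger values were 2.23e-05 for Slc2a3, 4.06e-05 for Pfkfb3, 4.11e-05 for Vhl, 8.76e-05 for Hk2, 9.47e-05 for Car12, 0.000269 for Tpi1, 0.000273 for Higd1a, 0.000621 for Pfkfb4 and 0.000822 for Ldhb. The largest among those past the threshold were 0.001 for Gapdh, 0.00147 for Epas1, 0.00329 for Ddit4, 0.00776 for Hif3a, 0.0131 for Eno1, 0.0225 for Pgk1 and 0.0233 for Arnt.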

How the results depend on the processing

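No paired analysis was possible because replicate numbers differ between all groups. Of the 107 member effects past the threshold, 609 repeats under other settings kept direction and threshold, 32 lost the threshold and 1 reversed. With leukocyte markers as a covariate 20 calls were lost, and in CD31+ cells 4469 of all genes passed in place of 7838, 8 members rose in place of 20 and 4 fell in place of 7. Of those 7 falls 3 kept their call (Gapdh, Slc2a3 and Kdm3a), and Pfkfb4 turned from 0.69 to -0.67. Slc16a3 in CD31+ cells then changed by -0.0479 in place of 1.02. The cause was not tested, and that covariate moves with treatment. DESeq2 and RLE factors lost 0 calls, no filter 3, the joint fit 8 and table position 1.

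Leaving out each library kept the call in 1300 repeats, lost it in 64 and reversed 0, and 13 effects, named in the report, lost the threshold in at least 1 repeat. Counts of members that rose then ran from 16 to 21 in CD31+, 15 to 17 in CD45+, 11 to 11 in EpCAM+ and 8 to 10 in triple-negative cells. Counts that fell ran from 7 to 7, 9 to 11, 13 to 16 and 16 to 20. Effects that differed between fractions numbered 32 to 34 and ratios 21 to 23. Scarce genes (Aldoc, Hk2, Hif3a and Car12 in CD31+ cells) rest on few counts.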
